A study of Mus musculus with 24 samples.

Results

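The 10 genes described here had widely different ratios of liver to reference signal in mice lacking the glucagon receptor and in wildtype mice: Stc1, Rnf150, Ptchd1, Cntn4, Ceacam2, Ccny, Lsm14b, Slc26a1, Atp2b2 and Obox1. They were picked for large differences between the genotypes (KO minus WT) seen at 1 or more ages in these same arrays, with no set threshold, so those differences are given as a description, without a test. The 10 genes are among 20144 genes with a single symbol on the array and among the 17249 that were tested, and they carry 19 probes. All 10 passed the filter on dim probes (the brightest probe had to stand well above background in Cy5 on 4 or more of the 24 arrays). The study profiled liver RNA of wildtype (WT) and glucagon receptor knockout (GCGR KO) mice at embryonic age E18.5 and postnatal ages P2.5 and P7.5 (in days), 4 arrays per genotype and age. Each array read liver RNA in Cy5 against a pooled mouse reference RNA in Cy3, so a log2 ratio is liver over reference. The labels give no strain, no sex, no design of the knockout allele and no statement of whether a sample was 1 animal, so p-values measure the spread between these samples, which may be technical.

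The glucagon receptor is a G protein coupled receptor that is abundant on hepatocytes and raises cyclic AMP when glucagon binds, and cyclic AMP acts on genes through factors that bind cyclic AMP response elements. The 10 genes belong to no common pathway. Stc1 encodes the secreted hormone stanniocalcin 1. Rnf150 encodes a RING finger protein of a family of membrane ubiquitin ligases, Ptchd1 a patched-domain membrane protein and Cntn4 the adhesion molecule contactin 4, the last of these best known from neurons. Ceacam2 encodes an adhesion molecule of the carcinoembryonic antigen family. Ccny encodes cyclin Y, a partner of cyclin-dependent kinases at the plasma membrane, and Lsm14b an RNA-binding protein of cytoplasmic mRNA granules. Slc26a1 encodes a sulfate and oxalate exchanger of the hepatocyte membrane, Atp2b2 a plasma membrane calcium pump and Obox1 a homeobox protein of a family named for oocytes.

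Stc1, Rnf150 and Ccny were left out of the promoter search, so the counts of matches below do not cover them. Promoter windows of the other 7 of the 10 genes were taken from RefSeq (GRCm38.p6). Those below are shown because Ptchd1 and Cntn4 had similar patterns and because Ceacam2 and Lsm14b were lower in KO at each of the 3 ages. Each line gives the 250 bases before the annotated start, 5′ to 3′, with matches to TGACG or its reverse complement CGTCA in capitals. They lie at chrX:155623328-155623577 (minus strand), chr6:106118515-106118764 (plus strand, the first of 2 annotated starts), chr7:25540005-25540254 (minus strand) and chr2:180024737-180024986 (plus strand).
Ptchd1: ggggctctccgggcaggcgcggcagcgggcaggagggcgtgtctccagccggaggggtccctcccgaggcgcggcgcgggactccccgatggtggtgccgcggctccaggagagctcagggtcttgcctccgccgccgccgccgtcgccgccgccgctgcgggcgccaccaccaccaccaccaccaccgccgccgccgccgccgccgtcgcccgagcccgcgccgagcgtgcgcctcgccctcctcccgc
Cntn4: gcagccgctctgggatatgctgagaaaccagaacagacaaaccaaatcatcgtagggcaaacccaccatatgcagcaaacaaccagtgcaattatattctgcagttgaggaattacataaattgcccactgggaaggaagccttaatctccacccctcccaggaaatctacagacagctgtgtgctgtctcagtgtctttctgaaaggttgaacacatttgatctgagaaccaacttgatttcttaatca
Ceacam2: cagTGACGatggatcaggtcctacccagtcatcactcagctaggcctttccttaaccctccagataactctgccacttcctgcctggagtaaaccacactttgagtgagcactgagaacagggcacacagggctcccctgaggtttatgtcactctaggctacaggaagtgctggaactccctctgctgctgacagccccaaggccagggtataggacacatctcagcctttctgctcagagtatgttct
Lsm14b: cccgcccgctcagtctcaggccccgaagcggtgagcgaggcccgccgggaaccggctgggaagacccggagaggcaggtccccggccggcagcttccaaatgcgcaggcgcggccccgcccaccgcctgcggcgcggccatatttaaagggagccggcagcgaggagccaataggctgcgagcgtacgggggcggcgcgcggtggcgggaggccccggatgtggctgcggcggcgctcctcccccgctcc
The Ptchd1 and Cntn4 stretches differed in base composition, with 81.6% and 44.4% of bases G or C. The full cyclic AMP response element TGACGTCA (its own reverse complement) was in 0 of the 11 windows of 300 bases (250 before to 50 after the start) of the 7 genes, and in 1.79% of all 32851 windows. The shorter TGACG, sought on both strands and contained in the full element, was in 1 of 11 windows, that of Ceacam2, and in 20.8% of all windows. A match describes these letters and not a bound site.

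WT and KO arrays lay on different slides (5 and 4 slides) read with 2 versions of the scanner software, so the part of the slides and that of the genotype cannot be told apart in any difference between KO and WT below. The Cy3 reference, which should be alike on all arrays, was called different between the slide sets (limma, adjusted p under 0.05) for 43.7%, 39.7% and 46.1% of the 17249 genes at the 3 ages in order, and it differed by at least 1 log2 unit for 0.539%, 0.458% and 0.464%. The targeted gene Gcgr read between 4.87 and 6.26 on the 12 WT arrays and between -0.01 and 0.38 on 11 KO arrays, as a log2 ratio. On the P7.5 array labelled KO replicate 2 it read 5.02, against 5.50 to 5.65 on the P7.5 WT arrays, so each P7.5 result rests on 3 libraries with low Gcgr and 1 without. P2.5 KO replicate 3 lay alone on its slide and had the fewest probes well above background in Cy5 (22668 of 39429, where the other arrays reached up to 31882). The other P2.5 KO arrays had 24312 to 27837 and the P2.5 WT arrays 28227 to 31362. Hepatocyte markers were well above background on all 24 arrays for 10 of 10 genes, and their summed Cy5 signal at E18.5 was 2270000 to 2900000 in WT and 2590000 to 2840000 in KO. At P2.5 the sum was 2160000 to 3160000 in WT and 2160000 to 2550000 in KO, and at P7.5 2930000 to 3640000 and 2980000 to 3590000. By log2 ratio, 5, 10 and 7 of the 10 hepatocyte markers were lower in KO at the 3 ages, at P2.5 by -0.9 (Alb) to -0.11 (Tat). Fewer cells of a type and less RNA per cell cannot be told apart in these whole-liver samples.

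At E18.5, 9 of the 10 genes had KO and WT log2 ratios that did not overlap, and at P2.5 and P7.5 this held for 7 each. Among all 17249 genes the ratios did not overlap for 32.3%, 18.9% and 38.4%, and since the genes were chosen on this contrast nothing is read from the comparison. The median absolute difference of the 10 genes was 1.91, 1.39 and 1.38 log2 units at the 3 ages, beside 0.18, 0.18 and 0.21 over all genes. KO was higher in 4, 2 and 4 of the separated genes (18.6%, 8.64% and 17.8% of all genes) and lower in 5, 5 and 3 (13.6%, 10.2% and 20.6%). Rnf150 was higher, and Ceacam2, Ccny and Lsm14b lower, in KO without overlap at all 3 ages.

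**Figure D1:**
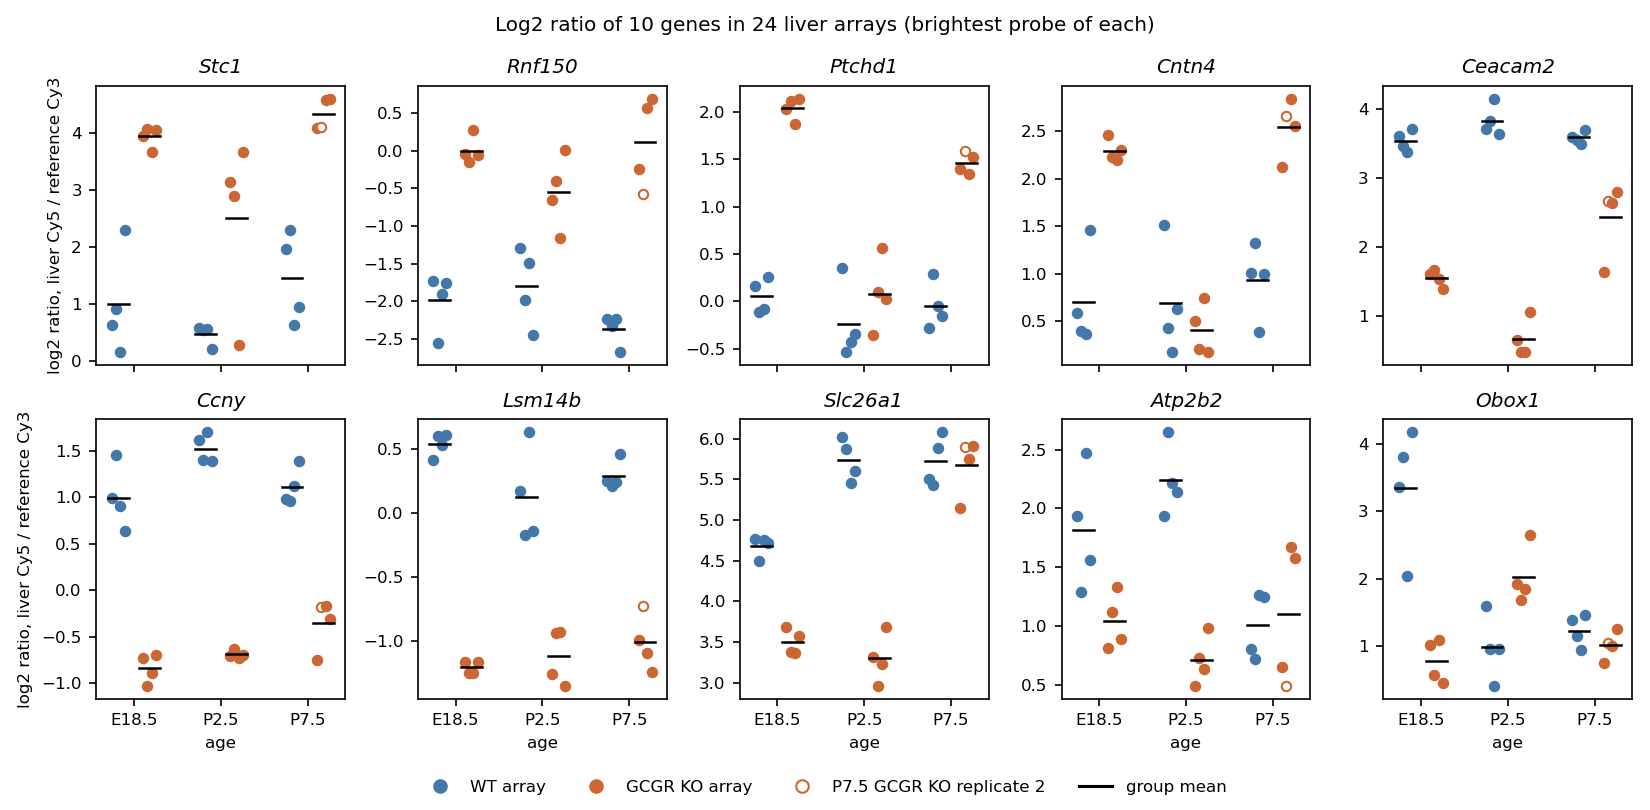
Log2 ratio of liver Cy5 over reference Cy3 (vertical axis) of each gene's brightest probe on the 24 arrays, by age, with WT in blue, GCGR KO in orange, the array labelled KO replicate 2 of P7.5 as an open circle and group means as black lines. Ceacam2, Ccny and Lsm14b lie lower in KO at every age, whereas Ptchd1 and Cntn4 overlap at P2.5.

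Stc1, the secreted stanniocalcin hormone, had the widest difference of the genes that were higher in KO. Stc1 ratios at E18.5 were 0.64, 0.91, 0.15 and 2.30 in WT and 3.95, 4.07, 3.66 and 4.05 in KO. Stc1 at P2.5 read 0.58, 0.54, 0.57 and 0.21 in WT and 3.14, 2.90, 0.28 and 3.67 in KO. Stc1 at P7.5 read 1.96, 2.29, 0.64 and 0.95 in WT and 4.09, 4.1, 4.58 and 4.6 in KO. All KO arrays lay above all WT arrays at E18.5 and P7.5, and at P2.5 KO replicate 3 lay inside the WT range while the other KO arrays lay above it. The probe was well above background on 3 of the 4 P2.5 KO arrays. The difference in log2 ratio was 2.94 ± 0.52 (SE from the fit over all 24 arrays, n = 4 per group), 2.02 ± 0.52 and 2.89 ± 0.52 at the 3 ages, and 2.76 at P2.5 without KO replicate 3. In Cy5 alone it was 2.38, 1.73 and 2.42, and in the Cy3 reference alone -0.05, -0.04 and -0.10. The Stc1 probe was well above background in Cy3 on 0 of 24 arrays, so its Cy3 values could not show a difference between the slide sets.

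Rnf150, of the RING finger family, was higher in KO as a ratio at each age. Rnf150 ratios at E18.5 were -1.73, -2.56, -1.91 and -1.76 in WT and -0.04, -0.15, 0.27 and -0.06 in KO. Rnf150 at P2.5 read -1.29, -1.99, -1.49 and -2.45 in WT and -0.65, -0.40, -1.16 and 0.01 in KO. Rnf150 at P7.5 read -2.24, -2.33, -2.24 and -2.68 in WT and -0.25, -0.58, 0.57 and 0.69 in KO. The genotypes did not overlap at any age, with P2.5 KO replicate 3 the lowest KO array. The differences in log2 ratio were 1.99, 1.25 and 2.48 (each ± 0.28), but the Cy3 reference itself read 10.19 to 10.46 on WT slides and 8.70 to 8.92 on KO slides. The reference alone differed by -1.44, -1.55 and -1.61 log2 units, each with an SE of 0.05. In Cy5 alone the Rnf150 difference was 0.57 and 0.92 (± 0.26) at E18.5 and P7.5, and at P2.5 it turned to -0.34 with overlapping groups. At each age the Cy3 difference of Rnf150 was wider than that of Cy5.

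Ptchd1, the patched-domain protein, was higher in KO at E18.5 and P7.5 and overlapped at P2.5. Ptchd1 ratios at E18.5 were 0.16, -0.11, -0.08 and 0.26 in WT and 2.03, 2.12, 1.87 and 2.14 in KO. Ptchd1 at P2.5 read 0.35, -0.54, -0.43 and -0.35 in WT and -0.36, 0.10, 0.56 and 0.02 in KO. Ptchd1 at P7.5 read -0.28, 0.29, -0.05 and -0.15 in WT and 1.40, 1.59, 1.34 and 1.52 in KO. The KO arrays were close together at E18.5 and P7.5 and spread through and above the WT range at P2.5. The Ptchd1 probe was well above background on 3 of the 4 P2.5 KO arrays. Ratios of Ptchd1 differed by 1.98, 0.32 and 1.51 (± 0.18), those of Cy5 alone 1.65, -0.16 and 1.39, and those of Cy3 alone -0.10, -0.55 and -0.07.

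Cntn4, the neuronal contactin, followed the same order of ages. Cntn4 ratios at E18.5 were 0.58, 0.40, 0.36 and 1.46 in WT and 2.46, 2.23, 2.19 and 2.30 in KO. Cntn4 at P2.5 read 1.51, 0.43, 0.18 and 0.63 in WT and 0.50, 0.21, 0.74 and 0.17 in KO. Cntn4 at P7.5 read 1.01, 1.32, 0.39 and 1.0 in WT and 2.12, 2.66, 2.84 and 2.55 in KO. The groups were apart at E18.5 and P7.5 and overlapped at P2.5, where the probe was well above background on 2 of 4 KO arrays. Ratios of Cntn4 differed by 1.59, -0.28 and 1.61 (± 0.26), with 1.34, -0.20 and 1.56 in Cy5 alone. The probe was well above background in Cy3 on 6 of 24 arrays. With the scanner software's own ratio the P7.5 difference was 0.34. Neural markers were well above background on all 24 arrays for 6 of 9 genes and on 0 arrays for Neurod1. Their summed Cy5 signal was 5220 to 10800 on WT arrays and 4380 to 5130 on KO arrays, but by log2 ratio 5, 3 and 4 of the 8 measured were higher in KO at the 3 ages and 3, 5 and 4 lower.

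Markers of stellate cells and fibroblasts were well above background on all 24 arrays for 7 of 8 genes and on 23 for Reln. By log2 ratio 8 of 8 were higher in KO at E18.5, 7 of 8 lower at P2.5 and 8 of 8 higher at P7.5, the exception at P2.5 being Des (0.29). The collagen gene Col1a1 differed by 1.05, -0.67 and 2.05, and the matrix gene Dcn by 0.3, -0.4 and 1.58. Their summed Cy5 signal was 17400 to 32900 in WT and 22400 to 23500 in KO at E18.5. It was 29700 to 43000 and 13600 to 25100 at P2.5, and 23900 to 31200 and 30400 to 57500 at P7.5. Cholangiocyte markers, all 5 well above background on all arrays, summed to 7490 to 10500 in WT and 11500 to 12700 in KO at E18.5. Their sums were 8560 to 11000 and 10200 to 11700 at P2.5, and 9000 to 11200 and 14700 to 20800 at P7.5. As log2 ratios, 3, 3 and 4 of these 5 markers were higher in KO at the 3 ages and 2, 2 and 1 lower. Of the 7 endothelial markers 5, 1 and 6 were higher in KO at the 3 ages and 2, 5 and 1 lower. Of the 6 macrophage markers measured 5, 3 and 2 were higher and 1, 3 and 4 lower. Of the 8 erythroid markers 5, 4 and 3 were higher and 3, 4 and 5 lower. The part of neural RNA, and of RNA of the cell types named here, in the values of the 10 genes was not tested.

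Ceacam2, the adhesion molecule, was lower in KO at each age, most at P2.5. Ceacam2 ratios at E18.5 were 3.61, 3.47, 3.37 and 3.71 in WT and 1.61, 1.66, 1.54 and 1.39 in KO. Ceacam2 at P2.5 read 3.71, 3.83, 4.15 and 3.64 in WT and 0.65, 0.47, 0.48 and 1.05 in KO. Ceacam2 at P7.5 read 3.59, 3.55, 3.50 and 3.70 in WT and 1.63, 2.67, 2.64 and 2.79 in KO. No KO array reached the WT range, and P7.5 KO replicate 1 lay well below the other P7.5 KO arrays. Ratios of Ceacam2 differed by -1.99, -3.17 and -1.16 (± 0.18), which is 8.99-fold lower at P2.5, the age at which all 10 hepatocyte markers were also lower. The part of hepatocyte RNA in the Ceacam2 and Slc26a1 values was not tested. The liver channel alone differed by -3.02, -4.36 and -1.53, and the Cy3 signal of the same probe was also lower on KO slides, by -1.1, -1.56 and -0.58. Ceacam2 has a close paralogue in Ceacam1, which had no probe by that name here, and whether the probe also takes up Ceacam1 RNA was not tested.

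Ccny, cyclin Y, was lower in KO at the 3 ages, most at P2.5. Ccny ratios at E18.5 were 0.99, 1.45, 0.90 and 0.64 in WT and -0.73, -1.03, -0.89 and -0.70 in KO. Ccny at P2.5 read 1.62, 1.40, 1.70 and 1.39 in WT and -0.71, -0.63, -0.73 and -0.70 in KO. Ccny at P7.5 read 0.98, 0.96, 1.12 and 1.39 in WT and -0.75, -0.18, -0.17 and -0.31 in KO. Every WT array was above 0 and every KO array below it. Ratios of Ccny differed by -1.83, -2.22 and -1.46 (± 0.15), those of Cy5 alone -1.20, -1.63 and -0.96, and the reference was higher on KO slides by 0.62, 0.50 and 0.52.

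Lsm14b, the mRNA granule protein, was also lower in KO at the 3 ages, most at E18.5. Lsm14b ratios at E18.5 were 0.41, 0.60, 0.53 and 0.61 in WT and -1.16, -1.25, -1.25 and -1.16 in KO. Lsm14b at P2.5 read 0.17, -0.17, 0.63 and -0.14 in WT and -1.26, -0.94, -0.93 and -1.35 in KO. Lsm14b at P7.5 read 0.25, 0.21, 0.24 and 0.46 in WT and -0.99, -0.73, -1.09 and -1.24 in KO. The groups were apart at each age. Ratios of Lsm14b differed by -1.74, -1.24 and -1.30 (± 0.14), and those of Cy5 alone -1.41, -0.92 and -1.02 (± 0.13), with the reference higher on KO slides by 0.36, 0.29 and 0.34.

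Slc26a1, the sulfate exchanger, was lower in KO at E18.5 and P2.5 and overlapped at P7.5. Slc26a1 ratios at E18.5 were 4.76, 4.5, 4.75 and 4.72 in WT and 3.68, 3.38, 3.36 and 3.57 in KO. Slc26a1 at P2.5 read 6.02, 5.87, 5.45 and 5.60 in WT and 3.32, 2.96, 3.23 and 3.68 in KO. Slc26a1 at P7.5 read 5.50, 5.43, 5.88 and 6.08 in WT and 5.15, 5.90, 5.75 and 5.91 in KO. The groups were well apart at P2.5 and intermixed at P7.5. Ratios of Slc26a1 differed by -1.19, -2.44 and -0.04 (± 0.18), which is 5.43-fold lower at P2.5, with -1.14, -2.53 and 0.51 in Cy5 alone. With the scanner software's own ratio the P7.5 difference was -0.73.

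Atp2b2, the calcium pump, was apart only at P2.5 by its brightest probe. Atp2b2 ratios at E18.5 were 1.94, 1.29, 2.47 and 1.56 in WT and 0.81, 1.12, 1.33 and 0.89 in KO. Atp2b2 at P2.5 read 1.94, 2.65, 2.22 and 2.14 in WT and 0.49, 0.73, 0.63 and 0.98 in KO. Atp2b2 at P7.5 read 0.80, 0.72, 1.26 and 1.25 in WT and 0.65, 0.49, 1.67 and 1.58 in KO. At P7.5 the KO arrays split, with replicates 1 and 2 below and replicates 3 and 4 above the WT range. Ratios of Atp2b2 differed by -0.78, -1.53 and 0.09 (± 0.25), and by -1.47, -2.1 and -0.49 with the scanner software's ratio. In Cy5 alone the differences were -0.32, -1.14 and 0.71 (± 0.25), with the reference higher on KO slides by 0.57, 0.24 and 0.76.

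Obox1, the homeobox gene, was lower in KO at E18.5 and higher at P2.5. Obox1 ratios at E18.5 were 3.36, 3.80, 2.04 and 4.17 in WT and 1.02, 0.57, 1.09 and 0.45 in KO. Obox1 at P2.5 read 1.59, 0.96, 0.41 and 0.96 in WT and 1.92, 1.69, 1.85 and 2.65 in KO. Obox1 at P7.5 read 1.38, 1.15, 0.94 and 1.46 in WT and 0.75, 1.04, 1.0 and 1.26 in KO. The E18.5 and P2.5 groups did not overlap, in opposite directions, and the P7.5 groups did. Ratios of Obox1 differed by -2.56, 1.04 and -0.22 (± 0.32), with -2.81, 1.12 and -0.15 in Cy5 alone (Cy3 was well above background on 13 of 24 arrays), and the scanner software's ratio gave -0.93, 0.59 and -1.08. Oocyte markers were well above background on all 24 arrays for 2 of 9 genes and on 0 arrays for Zp1, Zp2, Bmp15 and Figla. Eosinophil markers, 4 of 5 well above background on all arrays, moved in the same order: their summed Cy5 signal was 12000 to 16200 in WT and 2820 to 11000 in KO at E18.5. It was 566 to 727 in WT and 3860 to 12100 in KO at P2.5. At P7.5 it was 3840 to 6040 in WT and 2110 to 9990 in KO. By log2 ratio 1, 5 and 2 of these 5 markers were higher in KO at the 3 ages and 4, 0 and 3 lower. The part of eosinophil RNA in the Obox1 values was not tested.

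In Cy5 alone, KO and WT did not overlap for 9, 6 and 7 of the 10 genes (33.4%, 22.7% and 35.9% of all genes), and in the Cy3 reference alone for 7, 5 and 7 (43.6%, 31.4% and 44.9%). Each gene separated in Cy5 was separated in the same direction as a ratio, and Rnf150 at P2.5 was separated as a ratio only.

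**Figure D2:**
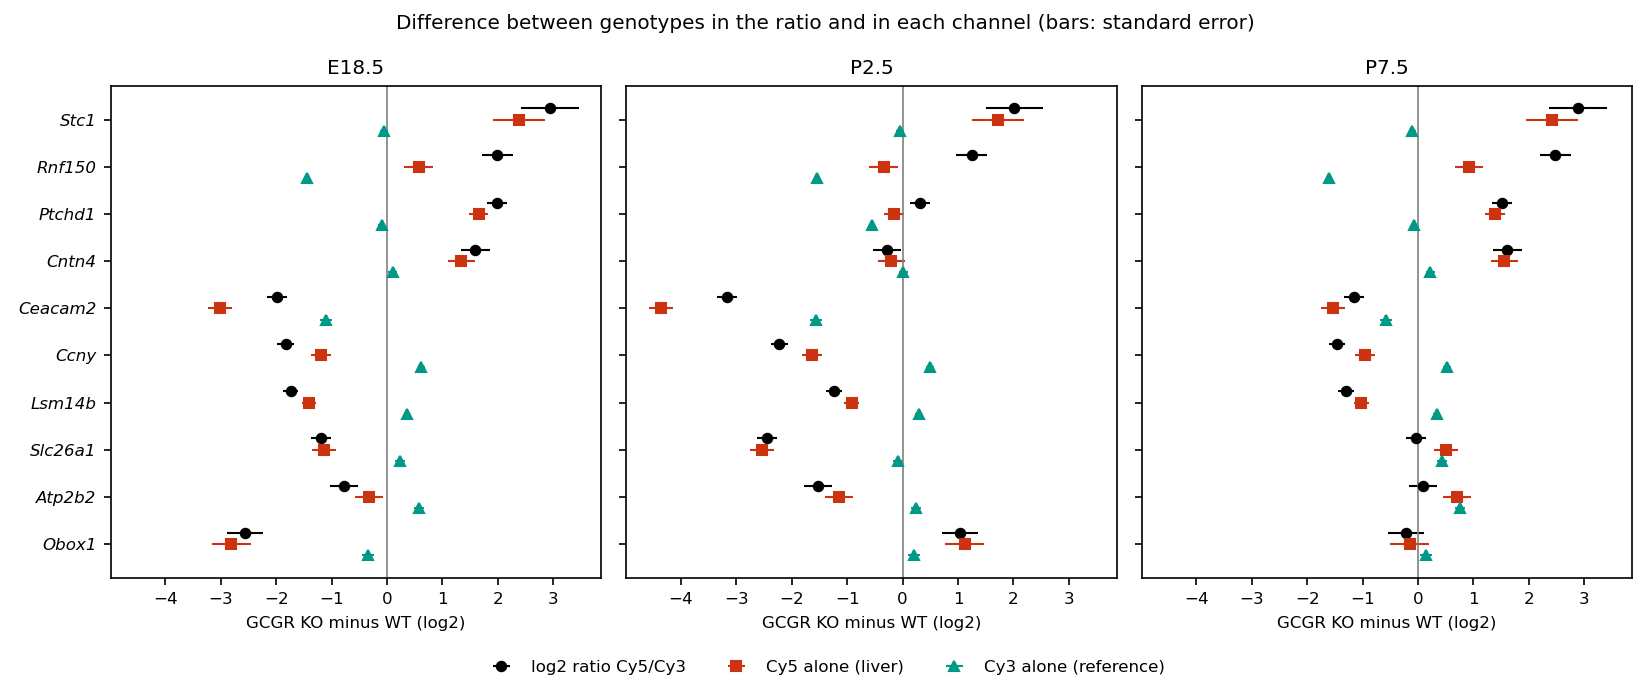
Difference GCGR KO minus WT (horizontal axis, log2) of each gene in the ratio (black), in Cy5 alone (red) and in the Cy3 reference alone (green) at the 3 ages, with bars of 1 standard error. Rnf150 differed mainly in the reference (-1.44, -1.55 and -1.61), Ceacam2 in both channels, and Stc1 in Cy5, with its reference signal not well above background.

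Gcgr was near its WT level on the P7.5 array labelled KO replicate 2. On a scale where the P7.5 WT mean is 0 and the mean of the other 3 P7.5 KO arrays is 1, it stood at 0.106 for Gcgr. Of the 7 genes apart at P7.5, a count that used this array, it stood at 0.892 for Stc1, 0.662 for Rnf150, 1.12 for Ptchd1, 1.1 for Cntn4, 0.742 for Ceacam2, 0.846 for Ccny and 0.732 for Lsm14b. This array shared its slide with the other P7.5 KO arrays. Without it the P7.5 ratio differences were 2.97, 2.71, 1.47, 1.57, -1.24, -1.52 and -1.40 in the same order of genes, and that of Gcgr was -5.52 in place of -4.29. Over all 17249 genes, 49.3% were apart without it (3 KO against 4 WT arrays) and 37.7% were called (limma, adjusted p under 0.05), beside 38.4% and 35.5% with it.

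Further probes, 9 in all, were present for 7 of the 10 genes, and 4 passed the filter. KO and WT did not overlap for 1, 1 and 2 of these 9 probes at the 3 ages. Those of Rnf150, Ptchd1, Cntn4, Ceacam2 and Obox1 differed by at most 0.27 log2 units in the ratio computed here. Except for 1 Cntn4 probe, well above background on 22 arrays, these probes were so on 0 to 5 arrays. The second Cntn4 probe differed by -0.1, 0.01 and 0.04 (± 0.1) where the brightest differed by 1.59, -0.28 and 1.61. The scanner software's ratio gave -1.84, -0.61 and -1.04 for this second Cntn4 probe. The second Lsm14b probe, well above background on 20 arrays, differed by -0.27, -0.28 and -0.22 (± 0.09), and by -1.13, -1.43 and -0.97 with the scanner software's ratio. The second Atp2b2 probe, well above background on all 24 arrays, had the order of the first with a wider range: -0.45, -2.10 and 1.44 (± 0.26), with no overlap at P2.5 and P7.5. At P7.5 that probe read 1.5, 1.61, 1.70 and 1.61 in WT and 2.57, 2.35, 3.60 and 3.67 in KO. As ratios the 2 probes therefore disagreed at P7.5. In Cy5 alone both differed upward in KO at P7.5, the brightest by 0.71 with overlapping groups and the second by 1.52 without overlap. Their Cy3 reference was higher on KO slides by 0.76 and 0.28. With the scanner software's ratio the second Atp2b2 probe differed by -1.07, -0.65 and 0.18. Stc1, Ccny and Slc26a1 had 1 probe each. Which transcripts each probe matches was not tested.

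**Figure D3:**
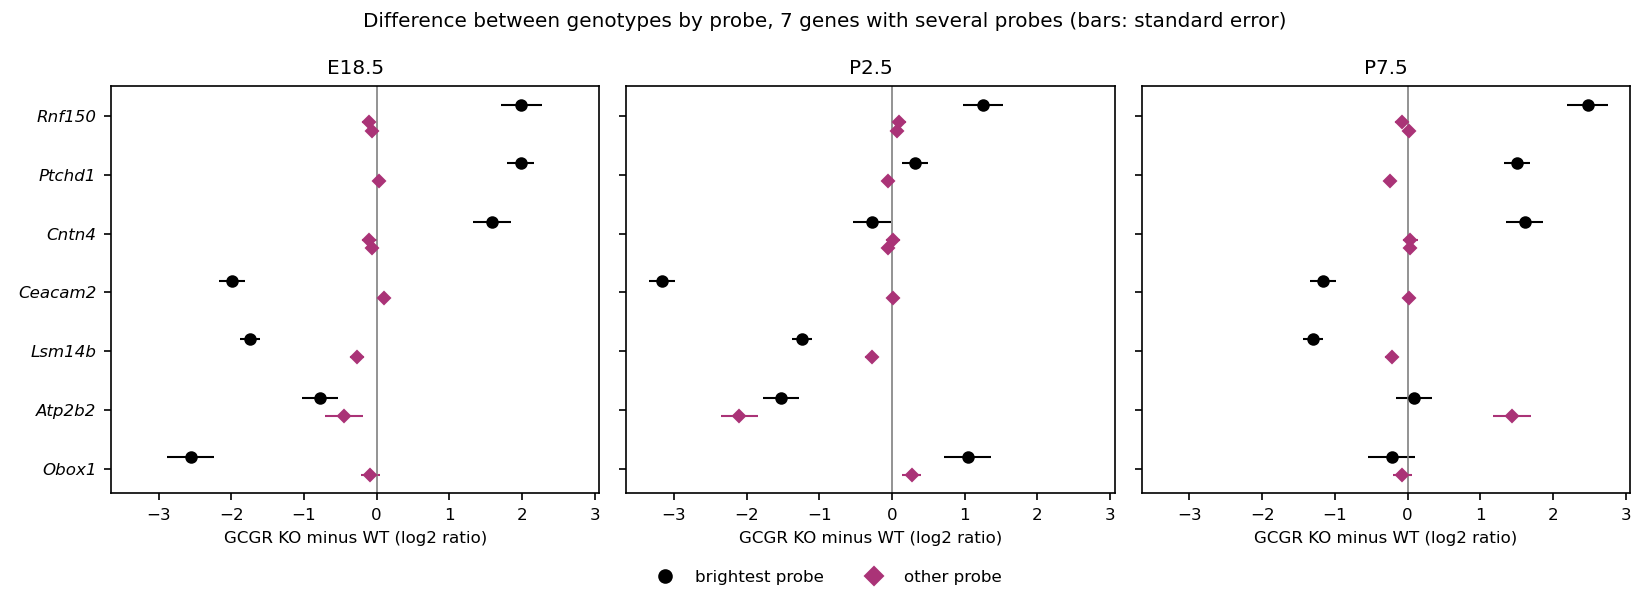
Difference GCGR KO minus WT in log2 ratio (horizontal axis) of the brightest probe (black circles) and of the other probes (purple diamonds) for the 7 genes with several probes, with bars of 1 standard error. Only the other Atp2b2 probe differed by more than 0.28 in either direction.

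Changes with age within a genotype were tested by limma over all 17249 genes with Benjamini-Hochberg adjustment. They were not the contrast used in choosing the genes, but they share its arrays and group means. A KO minus WT difference that varies between ages requires a change with age in at least 1 genotype. The counts and adjusted p of these age changes are therefore not independent of the choice, and they serve as a description of the 10 genes. In WT from E18.5 to P2.5, 4 of the 10 genes changed (31.1% of all genes did), 2 rising (18%) and 2 falling (13%). In WT from P2.5 to P7.5, 2 changed (37.4%), with 0 rising (20.9%) and 2 falling (16.5%). In KO from E18.5 to P2.5, 5 changed (33.9%), 1 rising (16%) and 4 falling (17.8%), and from P2.5 to P7.5, 6 changed (37.5%), 5 rising (21.5%) and 1 falling (16%). The median change of the 10 genes was 0.08, 0.08, -0.45 and 1.02 log2 units in the 4 comparisons, beside 0.02, 0.03, 0.00 and 0.03 over all genes.

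In WT between E18.5 and P2.5, Slc26a1 rose by 1.05 ± 0.18 (adjusted p = 8.65e-05) and Obox1 fell by 2.36 ± 0.32 (adjusted p = 8.91e-06), both without overlap between the ages. Ccny rose by 0.53 ± 0.15 (adjusted p = 0.00772) and Lsm14b fell by 0.42 ± 0.14 (adjusted p = 0.0259). WT slides held several ages, and with slide as a fixed block among the 12 WT arrays these adjusted p were 0.00596, 0.00245, 0.0171 and, for Lsm14b, 0.0554, whereas Ptchd1 passed (-0.44, adjusted p = 0.0389). Within the 3 slides that held both ages Slc26a1 was higher at P2.5 by 0.85 to 1.11 and Obox1 lower by -3.40 to -1.08. The Lsm14b call was lost without WT E18.5 replicate 2 or 4 (adjusted p = 0.0607 and 0.0606) and without WT P2.5 replicate 2 or 4 (0.107 and 0.0988), and Ptchd1 passed without WT P2.5 replicate 1 (0.0208). With the scanner software's ratio Slc26a1 (0.52, adjusted p = 0.0532), Ccny (0.0609) and Lsm14b (0.0658) lost their calls.

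In WT between P2.5 and P7.5, Atp2b2 fell by 1.23 ± 0.25 (adjusted p = 0.000678) and Ccny by 0.41 ± 0.15 (adjusted p = 0.0298). Atp2b2 was lower at P7.5 on each of the 3 slides that held both ages, by -1.39 to -0.97, and its second probe fell by 1.59 ± 0.26 (adjusted p = 9.48e-05). That probe had risen from E18.5 to P2.5 by 0.84 ± 0.26 (adjusted p = 0.0189), when the brightest differed by 0.42 (adjusted p = 0.227). The Ccny call was lost in Cy5 alone (adjusted p = 0.0672), without background subtraction (0.0548) and with the scanner software's ratio (0.164). It was also lost without WT P2.5 replicate 1 or 3 (0.0708 and 0.0805) or WT P7.5 replicate 1, 2 or 3 (0.0817, 0.0881 and 0.0528). Ceacam2 differed by -0.24 as a ratio (adjusted p = 0.315) and by -0.95 in Cy5 alone (adjusted p = 0.00173), its Cy3 signal having moved by -0.72. Rnf150 passed without WT P2.5 replicate 4 (-0.78, adjusted p = 0.0374) and Lsm14b without WT P2.5 replicate 3 (0.34, adjusted p = 0.0274).

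In KO each age lay on slides of its own, so age and slide cannot be told apart there. From E18.5 to P2.5 Ptchd1 fell by 1.96 ± 0.18 (adjusted p = 3.47e-08), Cntn4 fell by 1.89 ± 0.26 (8.15e-06) and Ceacam2 fell by 0.89 ± 0.18 (0.000712), all without overlap. Stc1 fell by 1.44 ± 0.52 (adjusted p = 0.0372), and without P2.5 KO replicate 3 its difference was -0.70 (adjusted p = 0.192). The Stc1 call was also lost without KO E18.5 replicate 1, 2 or 4 (adjusted p = 0.0681, 0.0766 and 0.0753). Obox1 rose by 1.25 ± 0.32 (adjusted p = 0.00479), but with the scanner software's ratio it differed by -0.93 (adjusted p = 0.161).

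Between P2.5 and P7.5 in KO, Slc26a1 rose by 2.38 ± 0.18 (adjusted p = 2.65e-09); at P7.5 its KO and WT arrays overlapped. Cntn4 rose by 2.13 ± 0.26 (adjusted p = 1.64e-06), Ceacam2 by 1.77 ± 0.18 (2.3e-07), Stc1 by 1.85 ± 0.52 (0.00786) and Ptchd1 by 1.38 ± 0.18 (3.52e-06). Each of these 5 genes was higher at P7.5 on every KO array than on any P2.5 KO array. Obox1 fell by 1.01 ± 0.32 (adjusted p = 0.0166), which was lost in Cy5 alone (0.0622) and without KO P2.5 replicate 4 (0.0633). The Stc1 call was lost with the scanner software's ratio (0.108) and when only the groups compared were fitted (0.0508). On P2.5 KO replicate 3 Stc1 read 0.28, where the other P2.5 KO arrays read 2.9 to 3.67, which widened its rise. The second Atp2b2 probe rose by 1.95 ± 0.26 (adjusted p = 7.55e-06) while the brightest differed by 0.39 (adjusted p = 0.242). Rnf150 passed without P7.5 KO replicate 2 (0.89, adjusted p = 0.0172) or KO P2.5 replicate 4 (0.84, 0.0264), and Ccny without P7.5 KO replicate 1 (0.47, 0.012). Whether the change with age differed between the genotypes was not tested.

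**Figure D4:**
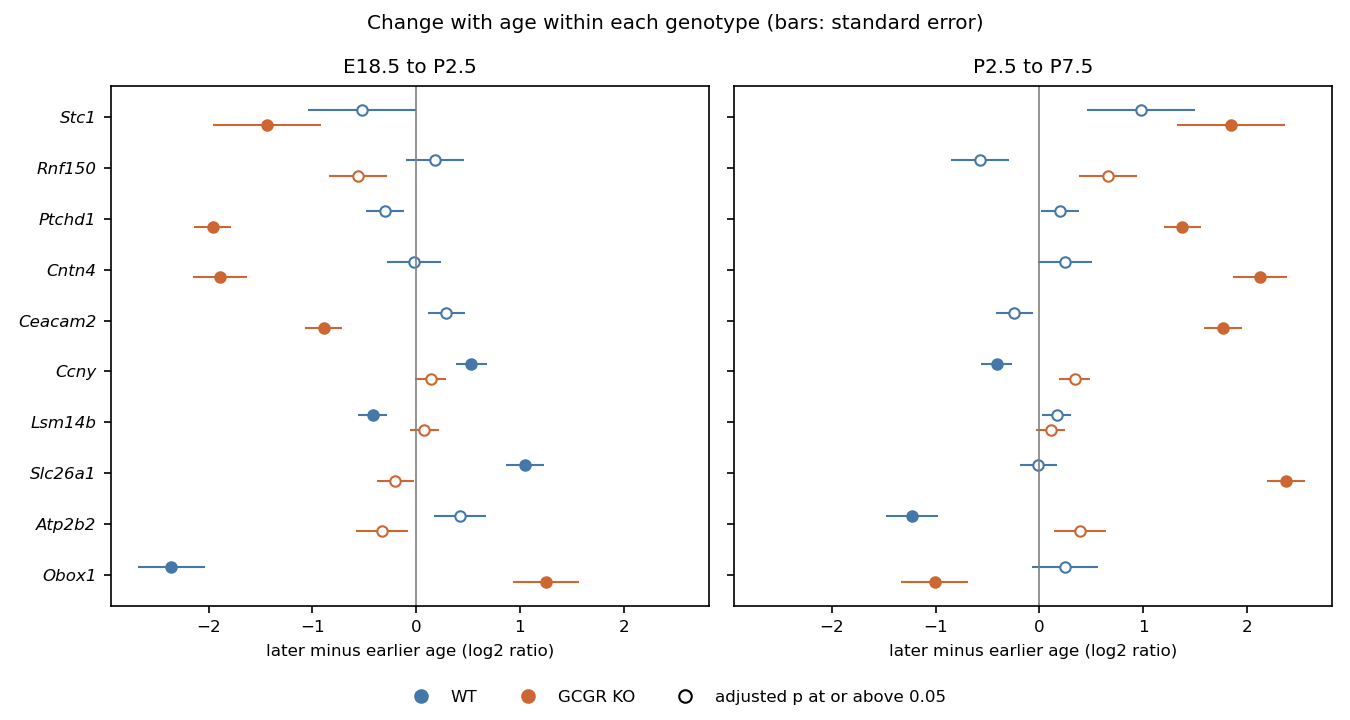
Change in log2 ratio (later minus earlier age, horizontal axis) of each gene from E18.5 to P2.5 and from P2.5 to P7.5 in WT (blue) and GCGR KO (orange), with bars of 1 standard error and open circles where the adjusted p was not under the threshold. In KO, Ptchd1 and Cntn4 changed by -1.96 and -1.89 and then by 1.38 and 2.13.

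Family members and known partners of the 10 genes, 68 in all and listed by family or partnership, were compared between KO and WT by the same test. Of these, 65 had a probe and 52 passed the filter. At E18.5, 12 passed the test (23.1%, beside 27.2% of all genes), 9 higher (15.8% of all genes) and 3 lower (11.4%) in KO. At P2.5, 10 passed (19.2%, beside 24.3%), 5 higher (11.9%) and 5 lower (12.4%), and at P7.5, 14 passed (26.9%, beside 35.5%), 9 higher (17.2%) and 5 lower (18.3%). Their median absolute difference was 0.15, 0.15 and 0.19 log2 units, near that of all genes (0.18, 0.18 and 0.21).

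Among relatives of Rnf150, the RING finger ligase Rnf128 was higher in KO by 1.16 ± 0.16 (adjusted p = 2.21e-05) at E18.5 and 1.25 ± 0.16 (6.99e-06) at P7.5. Its reference signal differed by -0.62 and -0.56 and its Cy5 alone by 0.54 and 0.94. At P2.5 Rnf128 differed by 0.45 (adjusted p = 0.0412), a call that ended with slide as a random block (0.0621) and turned to -0.07 in Cy5 alone. It also ended without WT P2.5 replicate 2 or 4 (0.136 and 0.0597) or KO P2.5 replicate 1 or 2 (0.0845 and 0.122). Rnf149 was higher by 0.84 ± 0.1 (adjusted p = 1.17e-05) at E18.5, with 1.21 in Cy5 alone, and Rnf130 lower by -0.32 ± 0.08 (adjusted p = 0.00422) at E18.5. The Rnf130 call was lost in Cy5 alone (-0.14, adjusted p = 0.273). Rnf13 and Znrf4 passed at no age.

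Among partners of Lsm14b, the RNA helicase Ddx6 was lower in KO by -1.12 ± 0.19 (adjusted p = 0.000302) at P2.5 and -1.25 in Cy5 alone, and the decapping cofactor Patl1 by -0.36 ± 0.08 (0.00325). Of the 8 tested relatives of Lsm14b, 2 were higher at E18.5, 3 lower at P2.5 and 1 higher at P7.5. The paralogue Lsm14a passed at no age (-0.04, -0.24 and 0.24). For Ccny, the kinase partner Cdk14 was higher by 0.48 ± 0.09 (adjusted p = 0.00106) at P2.5 and 0.51 ± 0.09 (0.000343) at P7.5, and the paralogue Ccnyl1 passed at no age (-0.03, -0.09 and -0.03).

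For Atp2b2, the sarcoplasmic reticulum calcium pump Atp2a2 was lower by -0.76 ± 0.1 (adjusted p = 1.84e-05) at P2.5, the age at which both Atp2b2 probes were lowest relative to WT. The plasma membrane pump Atp2b1 was higher by 1.09 ± 0.22 (adjusted p = 0.000735) at P7.5, with 0.64 in Cy5 alone. At E18.5 Atp2b1 differed by 0.71 (adjusted p = 0.0211; 0.16 and 0.651 in Cy5 alone), and at P2.5 by -0.51 (0.0937; -0.97 and 0.00344 in Cy5 alone). The E18.5 call was lost without WT E18.5 replicate 2 (0.37, adjusted p = 0.0786) or KO E18.5 replicate 2 (0.68, 0.0528), and P2.5 passed without KO P2.5 replicate 4 (-0.66, 0.039). For Slc26a1, the anion transporter Slc26a9 was higher by 0.54, 0.37 and 0.45 (± 0.09) at the 3 ages (adjusted p = 0.000182, 0.00489 and 0.000657), and lost its calls in Cy5 alone (0.137, 0.345 and 0.236). All 5 tested contactins other than Cntn4 and the stanniocalcin Stc2 passed at no age, Stc2 differing by 0.12, 0.34 and -0.10 (± 0.15). Of the Ceacam family 4 of 12 were tested and 1 passed, Ceacam20 at P7.5 (-0.38, adjusted p = 0.01), named after its value was seen. Of the Obox genes listed 0 of 4 passed the filter. Obox7, outside the list and named after its value was seen, was tested as the gene beside Obox1. It differed by 0.08, 0.18 and 0.2 at the 3 ages (adjusted p = 0.62, 0.202 and 0.128).

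**Figure D5:**
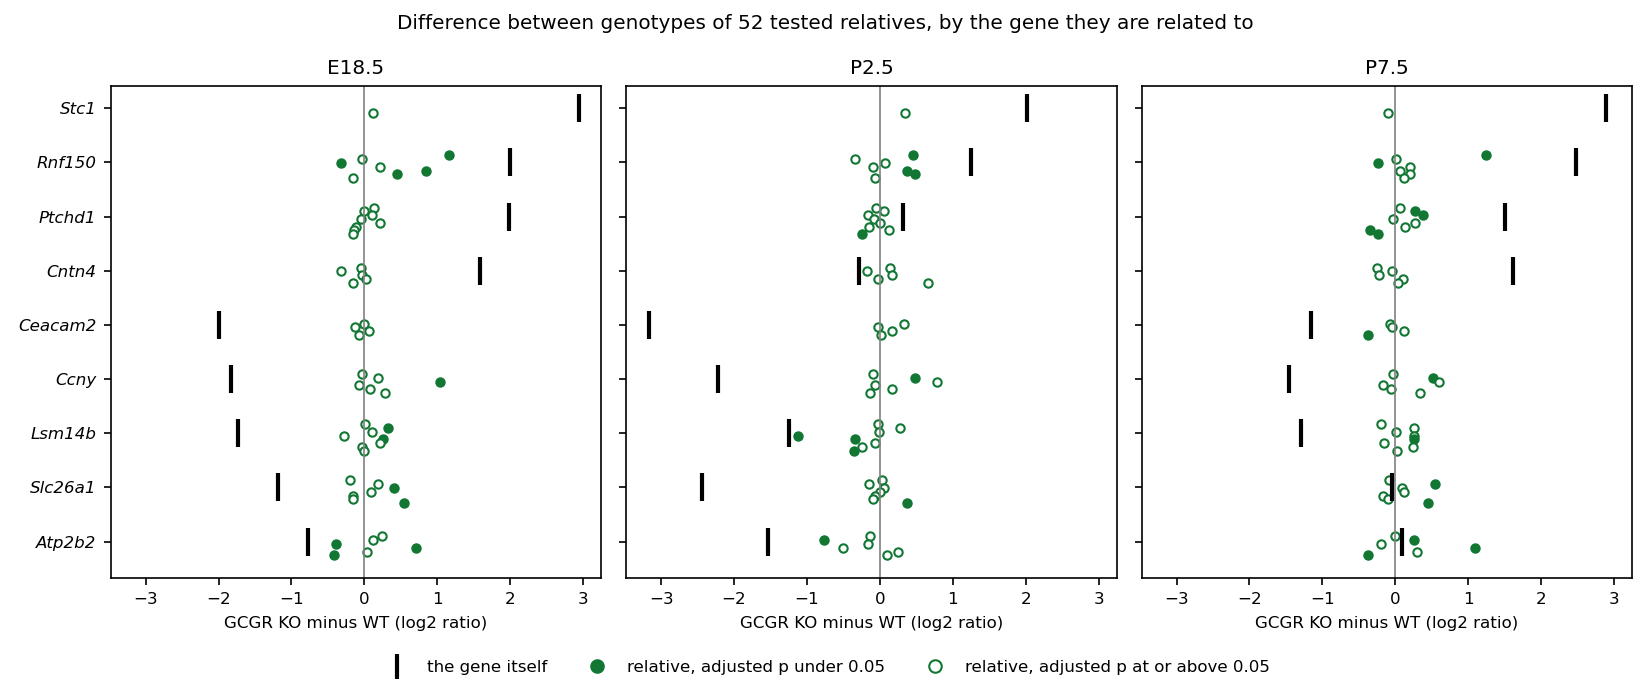
Difference GCGR KO minus WT in log2 ratio (horizontal axis) of the 52 tested relatives (green circles, filled where the adjusted p was under the threshold) in the row of the gene they are related to, whose own difference is a black bar. The relatives lie closer to 0 than most of the genes themselves, which were picked for large differences, so nothing is read from this. Among the relatives, Rnf128 (1.16 and 1.25), Ddx6 (-1.12 at P2.5) and Atp2b1 (1.09 at P7.5) lie farthest out.

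The genes with the most similar pattern over the 24 arrays were found among 16508 by the mean absolute difference of log2 ratios after centring each gene on its own mean, which is a description that shares the same reference and slides. Ptchd1 and Cntn4 were 0.38 log2 units apart, and both had Caln1, a calcium-binding protein gene, among their nearest genes (0.26 and 0.27). Caln1 differed between KO and WT by 1.35, -0.22 and 1.64. The other near gene of Ptchd1 was Olfr424 (0.36). Ccny and Lsm14b, 0.33 apart, shared Nanos3 (0.36 and 0.23), which differed by -1.37, -1.05 and -1.24. Ccny and Ceacam2, 0.38 apart, shared Pebp1 (0.41 and 0.48), and the remaining near genes were Syt10 for Ceacam2 (0.51) and Slc45a3 for Lsm14b (0.26).

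Rnf150 was nearest to Kmt2e (0.38) and Zfp292 (0.41). Both also had ratio differences well above those of Cy5 alone, Kmt2e with 1.26, 0.34 and 1.91 as a ratio and 0.11, -0.78 and 0.60 in Cy5. Slc26a1 was nearest to Adap2 (0.34) and Pakap (0.41), Atp2b2 to A1cf and Stk11ip (0.30 each), Obox1 to Olfr704 (0.36) and C2cd4c (0.39), and Stc1 to Olfr1370 (0.60) and Cbfa2t3 (0.64). These distances compare with the genes' own mean absolute deviations, from 0.53 for Atp2b2 to 1.48 for Stc1.

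The nearest tested gene on each side of every gene, 20 in all, was read from the RefSeq gene order. Of the 60 differences between KO and WT over the 3 ages, 1 reached 1 log2 unit, a size reached by 1.15%, 0.986% and 2.15% of all genes at the 3 ages. By the limma test, 3, 4 and 4 of the 20 passed (27.2%, 24.3% and 35.5% of all genes). The 1 was Idua, the lysosomal iduronidase gene beside Slc26a1, named after its value was seen, which was lower in KO by -0.82 (adjusted p = 0.0205), -1.0 (0.00706) and -0.16 (0.654) at the 3 ages, beside -1.19, -2.44 and -0.04 for Slc26a1.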

How the data were processed

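Liver RNA on 24 Agilent arrays (WT and GCGR KO, 3 ages, n = 4 each) was read in Cy5 against Cy3 reference RNA, with no dye swap; 0 columns belonged to other samples. Per the file headers, the deposited scanner files hold median spot and background intensity in both channels, not normalized, from Feature Extraction 11.5.1.1 (WT) and 11.0.1.1 (KO), while the submitters' processing notes name version 11. The deposited files also give the log10 of the liver to reference ratio as the software made it. The deposited series matrix holds log2 values (column medians -0.00119 to 0.0116) whose making the authors' labels do not state, and which ran in the direction of the liver over reference ratio computed here.

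Non-uniform spots and feature population outliers were dropped (0.367% to 0.73% of spots). Background was corrected by normexp (offset 50) and dye bias by loess within arrays, in limma 3.58.1 (R 4.3.3). Single channels were quantile normalized. Of 39429 probes 26581 carried 1 symbol and 12848 none. Genes were represented by their brightest probe, tested when it was well above background on at least 4 arrays (17249 genes, 187 missing values, 0 in the 10 genes), and fitted with 6 group means (lmFit, eBayes). Benjamini-Hochberg adjustment ran over all genes tested, threshold 0.05. Precision is limited by the number of arrays.

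The members and lists were chosen with earlier results of these data known. Named are the 10 genes with all probes, Gcgr, up to 4 passing relatives with the lowest adjusted p per age with up to 2 of the same subfamily without a call, and the 2 nearest patterns per gene, of which 1 is not reported here. Promoters were searched in Python 3.11.15 (pandas 2.3.3). The fit was tested on simulated data in which 200 genes were changed. Alternatives were no background subtraction, the software's ratio, the series matrix, Cy5 alone, the mean of all probes, no filter or one of 12 arrays, slide or replicate blocks, only the groups compared, and omission of each array; slide as a fixed block and the second brightest probe were chosen after seeing the data. Replicate numbers did not pair the samples. Ages named by the series but not given here were not analysed.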

Additional observations from a re-analysis of the deposited data

Results flagged for a closer look

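Among 60 groups of 4 arrays, 4 held a log2 ratio far from the other 3; chance flags about 1 in 20 groups. Stc1 in WT P2.5 replicate 4 read 0.21, the others 0.54 to 0.58. Ceacam2 in P7.5 KO replicate 1 read 1.63, the others 2.64 to 2.79. Lsm14b in WT P7.5 replicate 4 read 0.46, the others 0.21 to 0.25. Slc26a1 in WT E18.5 replicate 2 read 4.5, the others 4.72 to 4.76. Obox1 was higher in KO at P2.5 by 1.04 and lower at E18.5 by -2.56, with no overlap at either age; the difference between the ages was not tested.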

How the results depend on the processing

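Of 10 counts, the following moved by over 1.5 times, and for a lower count of calls the cause was not tested. Genes changed in WT from E18.5 to P2.5 numbered 1 with the software's ratio and 2 with only the groups compared, in place of 4. Those from P2.5 to P7.5 numbered 1 without background subtraction and 1 with the software's ratio, in place of 2. Those in KO from E18.5 to P2.5 numbered 3 with the software's ratio, in place of 5. With the second brightest probe, which 7 genes have, 1, 1 and 2 of those 7 were apart at the 3 ages. The main counts of 9, 7 and 7 are of all 10 genes, including Stc1, Ccny and Slc26a1, which have no second probe. Relatives passing at P2.5 numbered 4 with only the groups compared, in place of 10. Values that turned were Obox1 in KO from E18.5 to P2.5 (-0.93, software's ratio), and, in Cy5 alone, Rnf150 at P2.5 (-0.34), Rnf128 at P2.5 (-0.07) and Rnf130 at P7.5 (0.05). Leaving out 1 array at a time gave 3 to 5, 1 to 3, 4 to 5 and 6 to 7 age changes (WT, WT, KO, KO), 9 to 10, 7 to 8 and 7 to 7 genes apart (a count that leaving out an array cannot lower), and 8 to 14, 8 to 14 and 8 to 16 relatives. With the replicate block, 4, 2, 5 and 6 genes changed with age and 11, 11 and 14 relatives passed; same-numbered arrays correlated between -0.575 and 0.428, every pair over 0.1 in 0 of 7 comparisons, so the numbers are not taken as pairing. Dim probes limit the second probes.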
